A study of Homo sapiens with 6 samples.

Results

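Collagen and laminin chain genes were taken from the deposited gene table by their symbols, COL or LAM followed by the chain numbers, which gave 52 genes of 16306: 40 collagen and 12 laminin chain genes. The choice used the symbols alone, and no expression value. Of the 52, 31 had a mean estimated count of 10 or more over 6 libraries (22 collagen and 9 laminin chain genes), and the same 31 were tested. COL9A1, COL14A1, COL19A1 and COL20A1 were not listed in that gene table and could not be analysed.

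The libraries came from PC9, a cell line of human lung adenocarcinoma that carries an exon 19 deletion of EGFR. PC9 cells with a control shRNA (sh-NC, 3 libraries) were compared with PC9 cells with an shRNA against RBM10 (shRBM10, 3 libraries), and all 6 therefore carried an shRNA. RBM10 is an RNA-binding regulator of alternative splicing, and the comparison asks how gene expression differs when it is reduced. The study describes a pair of RBM10 shRNAs and does not say which was used for these libraries. The sh-NC libraries are called replicates 1 to 3. Of the shRBM10 columns, only A could be matched to a single sample title, and B and C are known by group alone. The labels call the libraries replicates, and whether those of a group came from separate cultures is not stated for the RNA-seq, so the p-values measure the spread between these libraries, which may be technical.

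Collagens are triple helices of 3 chains, and laminins are cross-shaped trimers of an alpha, a beta and a gamma chain. In basement membranes, laminin networks bind integrins and dystroglycan on epithelial cells, and a collagen IV network gives the sheet its strength. Fibrillar collagens form the fibres of the stroma and are made mainly by fibroblasts. Each trimer needs its own set of chains, so the chains are described below with their partners.

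The total estimated count was 16606401 to 18864241 per library. RBM10 was at 84.0, 47.5 and 86.3 CPM (the estimated count scaled to the library's total) in sh-NC, against 31.5, 29.2 and 37.8 CPM in shRBM10, with no overlap. Its log2 fold change was -1.24 (SE 0.23, edgeR quasi-likelihood adjusted p = 0.10), which did not pass the adjusted limit of 0.05. The 9 epithelial markers, all in the table, summed to 33570 to 42058 CPM in sh-NC, against 26821 to 37964 CPM in shRBM10. The fibroblast and smooth muscle markers in the table (4 of 8) summed to 1.1 to 2.29 CPM in sh-NC, against 1.03 to 2.43 CPM in shRBM10. The endothelial markers summed to 4.01 to 11.02 CPM in sh-NC, against 2.89 to 3.92 CPM in shRBM10, and the leukocyte markers to at most 2.05 CPM in any library. Most of the endothelial sum was CDH5, with counts of 177, 61 and 176 in sh-NC, against 40, 62 and 57 in shRBM10. Retinas are mentioned in the labels' protocol, and the retina markers in the table (3 of 7) summed to at most 0.216 CPM. Replicate 2 of sh-NC stood apart from replicates 1 and 3. The chain genes took 0.0938% of its counts, against 0.271% and 0.272% in replicates 1 and 3 and 0.191% to 0.290% in shRBM10. Fold changes of the chains described below are therefore given with and without it.

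Stretches of genome between head-to-head collagen IV genes are shown first, since the collagen IV genes are described below pair by pair. Collagen IV genes lie in pairs that are read in opposite directions from a shared start region. COL4A1 and COL4A2 are on chromosome 13, and COL4A3 and COL4A4 on chromosome 2. The stretches between the RefSeq gene bounds of each pair (GRCh38.p14, plus strand) are chr13:110307158-110307283, of 126 bases, and chr2:227164489-227164623, of 135 bases. Capitals mark GGGCGG, the core of the GC box bound by SP1, and CCAAT, each searched on both strands, where a minus-strand match reads as its reverse complement.
COL4A1-COL4A2: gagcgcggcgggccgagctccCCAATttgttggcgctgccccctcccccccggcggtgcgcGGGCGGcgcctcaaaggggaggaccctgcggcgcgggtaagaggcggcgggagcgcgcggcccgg
COL4A4-COL4A3: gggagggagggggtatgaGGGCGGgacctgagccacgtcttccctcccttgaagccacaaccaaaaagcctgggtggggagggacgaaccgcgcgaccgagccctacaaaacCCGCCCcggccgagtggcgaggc
The first stretch is 80.2% GC with 1 match to GGGCGG and 1 to CCAAT, and the second is 68.1% GC with 2 matches to GGGCGG, on opposite strands, and 0 to CCAAT. Of 35116 RefSeq promoters, 34.6% held GGGCGG and 21.1% held CCAAT in the last 126 bases before the start, and 35.5% and 22.1% did in the last 135 bases. A match is a description of the letters and not evidence of binding.

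Laminin chain genes were among the chains with the highest levels. Per transcript length, LAMB3, the beta chain of laminin-332, had the highest level of the 52 genes, at 202, 61.5 and 192 TPM (the authors' level per transcript length and library depth) in sh-NC replicates 1 to 3. LAMA3, the alpha chain of the same trimer, was at 12.7, 1.59 and 12.9 TPM, well under LAMB3 in each library. For laminin-511, a common epithelial laminin, LAMA5 was at 58.3, 12.1 and 63.0 TPM, LAMB1 at 30.1, 3.49 and 31.0 TPM, and LAMC1 at 23.7, 4.59 and 27.2 TPM. LAMB2, which replaces LAMB1 in other trimers, had a mean of 20.9 TPM (SD 10.3, n = 3). LAMB2 was under LAMB1 in replicates 1 and 3, at 26.7 and 26.8 TPM, and above it in replicate 2, at 9.02 TPM.

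The most abundant collagen gene per length was COL18A1, the core protein of a basement membrane heparan sulfate proteoglycan and the source of endostatin, with a mean of 46.5 TPM in sh-NC (SD 24.2, n = 3). It was followed by COL4A2 at 15.9 TPM (SD 9.0) and by COL7A1, the collagen of anchoring fibrils, at 12.2 TPM (SD 8.06). COL4A2 and COL7A1 differed by less than their spread. Replicate 2 was the lowest library in each, as in COL18A1, which was at 60.9, 18.6 and 60.2 TPM.

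Several trimers had a chain close to 0. COL1A1, the main chain of collagen I, had a mean count of 110.5 over the 6 libraries, while COL1A2, its partner in the usual trimer, had 0.50. COL6A1 and COL6A2 of the beaded-filament collagen VI had 409.5 and 62.8, while COL6A3 had 1.00 and COL6A5 and COL6A6 had 0.17 each. COL3A1, another abundant stromal collagen, had 0.33.

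The 21 silent genes, with a mean count under 10, were COL1A2, COL2A1, COL3A1, COL5A3, COL6A3, COL6A5, COL6A6, COL8A2, COL10A1, COL11A1, COL13A1, COL21A1, COL22A1, COL23A1, COL24A1, COL25A1, COL27A1, COL28A1, LAMA1, LAMB4 and LAMC3. Of these, 18 had a mean count under 2. Just above the limit of 10 was COL11A2 (14.5), and just below it were COL28A1 (9.67), COL13A1 (5.83) and LAMC3 (5.67). COL28A1 had counts of 5, 3 and 4 in sh-NC, against 28, 7 and 11 in shRBM10.

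No chain gene passed the adjusted test between shRBM10 and sh-NC. With a call set at a log2 fold change beyond 1 in either direction (a fold of 2) and an adjusted p below 0.05, edgeR's quasi-likelihood test called 0 of the 31 chains and 2 of all 12620 genes (0.0158%), neither of them a chain. DESeq2 called 1 of the 31 chains, COL8A1, against 573 of all genes (4.54%). The study states limits of p under 0.05 and the same fold, without saying whether the p was adjusted. With these limits on the unadjusted p, 3 chains were higher in shRBM10, COL8A1, COL4A3 and COL4A4, against 10.1% of all genes. At the same limits 0 were lower, against 1.53%. Without sh-NC replicate 1 the 3 became 6 (13.2% of all genes), and without replicate 3 they became 5 (12.3%). Both counts include COL28A1, which is outside the 31 chains and was tested in those fits. Without replicate 2 the count was again 3 (4.81% of all genes), of which only COL8A1 was shared, beside LAMA2 and COL28A1. With 1 library left out at a time, the share of all genes that were higher ran from 3.33% to 13.5%. With the GC trend removed 4 chains were higher, against 2.17% of all genes, with 2.5% of all genes lower. With the GC and length trends removed 2 were, against 2.24%, with 2.04% lower. LAMA4 had an unadjusted p under 0.05 with a smaller fold. Where higher values reflect RNA of the cells, this can be more RNA per cell or more cells that express the gene. Bulk libraries cannot tell these apart. Differences between libraries that follow length and GC content are given below.

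Without overlap between groups, 6 chains were higher in shRBM10 (COL8A1, COL4A3, COL4A4, COL12A1, LAMA4 and LAMB1), against 13.8% of all genes, and 1 was lower (COL9A3), against 16.2%. Together these were 22.6% of the 31 chains and 30.1% of all genes tested. In the exact two-sided permutation test these 7 chains reached p = 0.1, the smallest that 3 against 3 libraries allow. The median log2 fold change was 0.36 over the 22 collagens, of which 16 were above 0, and 0.33 over the 9 laminins, of which 7 were. Over all genes it was 0.03. Without sh-NC replicate 2 the medians were 0.07 for collagens and 0.08 for laminins, with 13 and 5 chains above 0. In that fit COL28A1, outside the 22, was also tested, and it is among the 13. Without shRBM10 library C they were -0.06 and 0.22, with 10 and 5 above 0.

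**Figure D1:**
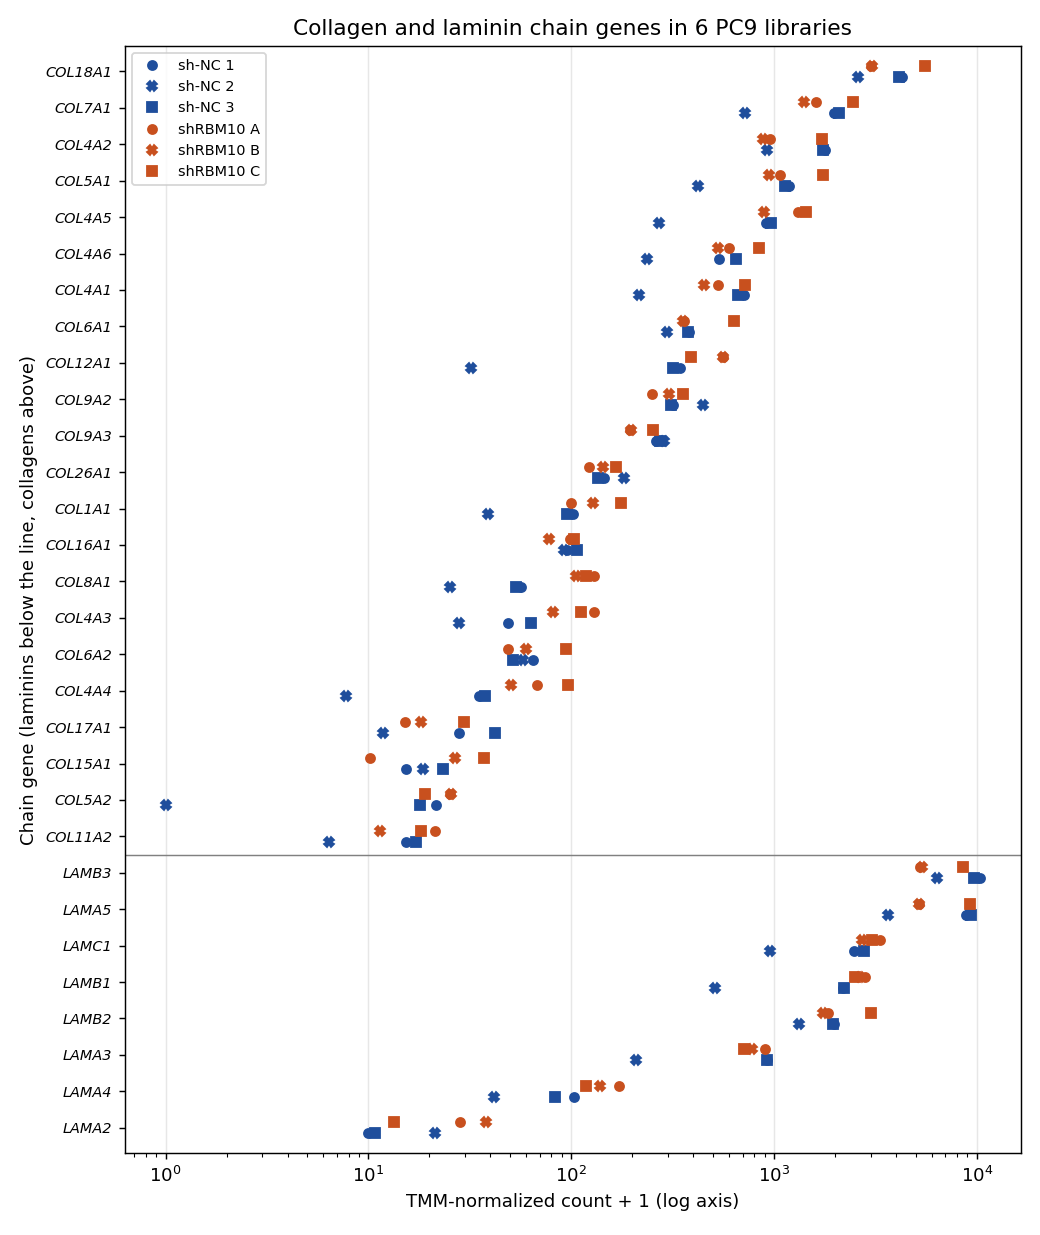
TMM-normalized count plus 1 (log axis) of 30 expressed chain genes, with 1 symbol per library, sh-NC in blue and shRBM10 in orange. COL8A1, COL4A3, COL4A4 and LAMA4 have every shRBM10 symbol to the right of every sh-NC symbol, and sh-NC replicate 2 (blue cross) is the lowest of the 6 libraries in 21 of the 30 genes.

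COL8A1, a short-chain collagen that forms networks in the cornea and vessel walls, had the smallest p of the chains. Its normalized counts were 55.7, 24.4 and 52.7 in sh-NC, against 128, 104 and 118 in shRBM10. The groups did not overlap, with sh-NC replicate 2 the lowest library and replicates 1 and 3 well under each shRBM10 library. The log2 fold change was 1.38 (SE 0.36, 2.60-fold), with an unadjusted p of 0.00318 and an adjusted p of 0.144 in edgeR's quasi-likelihood test. DESeq2 gave an adjusted p of 0.0263, and over all alternatives the adjusted p ran from 0.0263 to 0.515. The log2 fold change was 1.02 without sh-NC replicate 2 and 1.03 with the GC and length trends removed. With both changes together, a setting chosen after seeing the data, it was 0.89 for COL8A1, 0.90 for COL4A3 and 0.98 for COL4A4, all under the limit of 1, and the chains higher by the unadjusted rule were COL28A1 and LAMA2.

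All 6 collagen IV genes were expressed. COL4A3 and COL4A4 are chains of the basement membrane of the kidney glomerulus and of lung alveoli, and COL4A1 and COL4A2 are the ubiquitous chains. The first pair passed the unadjusted rule and the second did not, and the difference between the pairs was not tested. COL4A3 (chr2:227164565-227314792, plus strand, GENCODE release 29 on GRCh38) had normalized counts of 47.6, 27.1 and 62.6 in sh-NC, against 129, 80.7 and 110 in shRBM10. COL4A4 (chr2:227002711-227164453, minus strand) had 34.1, 6.78 and 36.6 in sh-NC, against 67.1, 49.3 and 95.1 in shRBM10. In both genes every shRBM10 library was above every sh-NC library, and both were low genes, with at most 127 reads in any library. The log2 fold changes were 1.20 for COL4A3 (SE 0.37, edgeR adjusted p = 0.154) and 1.40 for COL4A4 (SE 0.51, edgeR adjusted p = 0.171). Without sh-NC replicate 2 they were 0.87 and 0.91, under the limit of 1. Without shRBM10 library C, the unadjusted edgeR p of COL4A4 was 0.139.

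COL4A1 (chr13:110148963-110307233, minus strand) had normalized counts of 713, 216 and 666 in sh-NC, against 531, 452 and 720 in shRBM10. COL4A2 (chr13:110305812-110513209, plus strand) had 1776, 926 and 1745 in sh-NC, against 951, 879 and 1721 in shRBM10. In COL4A2, libraries A and B lay near sh-NC replicate 2, and library C lay with sh-NC replicates 1 and 3. The log2 fold changes were 0.09 for COL4A1 (SE 0.41) and -0.33 for COL4A2 (SE 0.34), and neither passed. Without sh-NC replicate 2 they were -0.36 and -0.65. The normalized count of COL4A2 was 2.49, 4.30 and 2.62 times that of COL4A1 in sh-NC, against 1.79, 1.95 and 2.39 times in shRBM10.

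COL4A5 and COL4A6 form the X-linked pair. COL4A5, which joins COL4A3 and COL4A4 in their trimer, had normalized counts of 910, 271 and 967 in sh-NC, against 1320, 892 and 1431 in shRBM10. COL4A6, which forms a separate trimer with COL4A5, had 537, 236 and 646 in sh-NC, against 600, 529 and 846 in shRBM10. The groups overlapped in both genes. The log2 fold changes were 0.76 (SE 0.42, edgeR adjusted p = 0.276) and 0.47 (SE 0.37, edgeR adjusted p = 0.415), and 0.29 and 0.07 without sh-NC replicate 2.

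Of the laminin alpha chains, LAMA4, found in laminins of vessels and muscle, had normalized counts of 102, 40.7 and 82.2 in sh-NC, against 172, 139 and 117 in shRBM10. The groups did not overlap. Its log2 fold change was 0.91 (SE 0.37, unadjusted p 0.0343, edgeR adjusted p = 0.185), and 0.54 without sh-NC replicate 2, where the unadjusted p was 0.0833. LAMA2, the alpha chain of muscle laminin, had few reads, with normalized counts of 8.98, 20.3 and 9.83 in sh-NC, against 27.5, 37.0 and 12.4 in shRBM10. It was the 1 chain of the longest quintile that was not low in sh-NC replicate 2, and its log2 fold change of 1.01 (SE 0.50, edgeR adjusted p = 0.229) became 1.35 without that library.

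LAMB3 and LAMA3 of laminin-332 did not pass the test. LAMB3 had normalized counts of 10353, 6344 and 9740 in sh-NC, against 5265, 5386 and 8552 in shRBM10. LAMA3 had 923, 208 and 922 in sh-NC, against 907, 776 and 713 in shRBM10. Both genes overlapped between groups. In LAMB3, libraries A and B were under every sh-NC library, and replicate 2 was the lowest sh-NC library in both genes. The log2 fold changes were -0.46 for LAMB3 (SE 0.30, edgeR adjusted p = 0.332) and 0.22 for LAMA3 (SE 0.46). Without sh-NC replicate 2 they were -0.73 and -0.29, and the unadjusted p of LAMB3 was 0.0151 (edgeR adjusted p = 0.154, within a range of 0.0660 to 0.701 over all alternatives).

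Set against its partner in the same library, LAMB3 was at 11.2, 30.6 and 10.6 times the normalized count of LAMA3 in sh-NC, against 5.80, 6.94 and 12 times in shRBM10. The library scaling cancels in these ratios, which overlapped between groups. Trends on length and GC content need not cancel. The longest annotated coding transcript is 10661 bases at 50.7% GC for LAMA3, and 4305 bases at 58.9% GC for LAMB3. NM_000227 took 81.5% to 97.6% of the estimated count of LAMA3, and its own length was not taken, so the difference in expressed length is not known here. The ratios were computed after the gene values had been seen.

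Of laminin-511, LAMA5 had normalized counts of 8810, 3643 and 9392 in sh-NC, against 5219, 5192 and 9269 in shRBM10. LAMB1 had 2199, 510 and 2225 in sh-NC, against 2810, 2656 and 2509 in shRBM10. LAMC1 had 2469, 954 and 2785 in sh-NC, against 3332, 2710 and 3057 in shRBM10. LAMB1 did not overlap between groups, LAMC1 overlapped only through library B, and in LAMA5 library C lay with sh-NC replicates 1 and 3. The log2 fold changes were -0.15 for LAMA5 (SE 0.39), 0.69 for LAMB1 (SE 0.45) and 0.55 for LAMC1 (SE 0.36), with edgeR adjusted p-values of 0.334 to 0.816. Without sh-NC replicate 2 they were -0.55, 0.18 and 0.12. LAMB2 had a log2 fold change of 0.33 (SE 0.28), or 0.085 without that library.

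Among the other abundant collagens, COL18A1 had normalized counts of 4256, 2585 and 4154 in sh-NC, against 3025, 3053 and 5549 in shRBM10. COL7A1 had 1977, 719 and 2090 in sh-NC, against 1609, 1405 and 2457 in shRBM10. In both, library C was the highest of the 6 and replicate 2 of sh-NC the lowest. The log2 fold changes were 0.08 (SE 0.31) and 0.19 (SE 0.39), and neither passed. They were -0.20 and -0.24 without sh-NC replicate 2.

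COL12A1, a collagen that binds the surface of fibrils, had the widest gap within sh-NC among chains with a mean count over 100. Its counts were 380, 23 and 353 in sh-NC, against 551, 589 and 411 in shRBM10. The groups did not overlap, and the log2 fold change was 1.13 (SE 0.64, edgeR adjusted p = 0.280), or 0.53 without replicate 2. COL9A3, of the cartilage collagen IX, was lower, at 214.6 (SD 33.3, n = 3) in shRBM10 against 273.3 (SD 12.2, n = 3) in sh-NC on the normalized scale, with a log2 fold change of -0.35 (SE 0.26, edgeR adjusted p = 0.399). Its partner COL9A2 was at -0.25 (SE 0.28), and without replicate 2 of sh-NC the pair was at -0.40 and -0.14.

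The 4 expressed fibrillar collagens were all above 0 on the log2 scale and none passed: COL1A1 at 0.77 (SE 0.41), COL5A2 at 0.75 (SE 0.68), COL5A1, which helps to set fibril width, at 0.46 (SE 0.39), and COL11A2 at 0.36 (SE 0.46). COL5A2 was listed at 0 in sh-NC replicate 2. Without that library the 4 were at 0.37, 0.17, 0.039 and -0.020. COL15A1, the other multiplexin, was at 0.39 (SE 0.48), and the collagen VI chains COL6A1 and COL6A2 were at 0.36 (SE 0.30) and 0.22 (SE 0.34), or 0.29, 0.17 and 0.14 without that library. Below 0 were COL17A1, a transmembrane collagen of hemidesmosomes, at -0.43 (SE 0.48), COL26A1 at -0.10 (SE 0.28) and COL16A1 at -0.08 (SE 0.28), or -0.84, -0.047 and -0.21 without it.

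**Figure D2:**
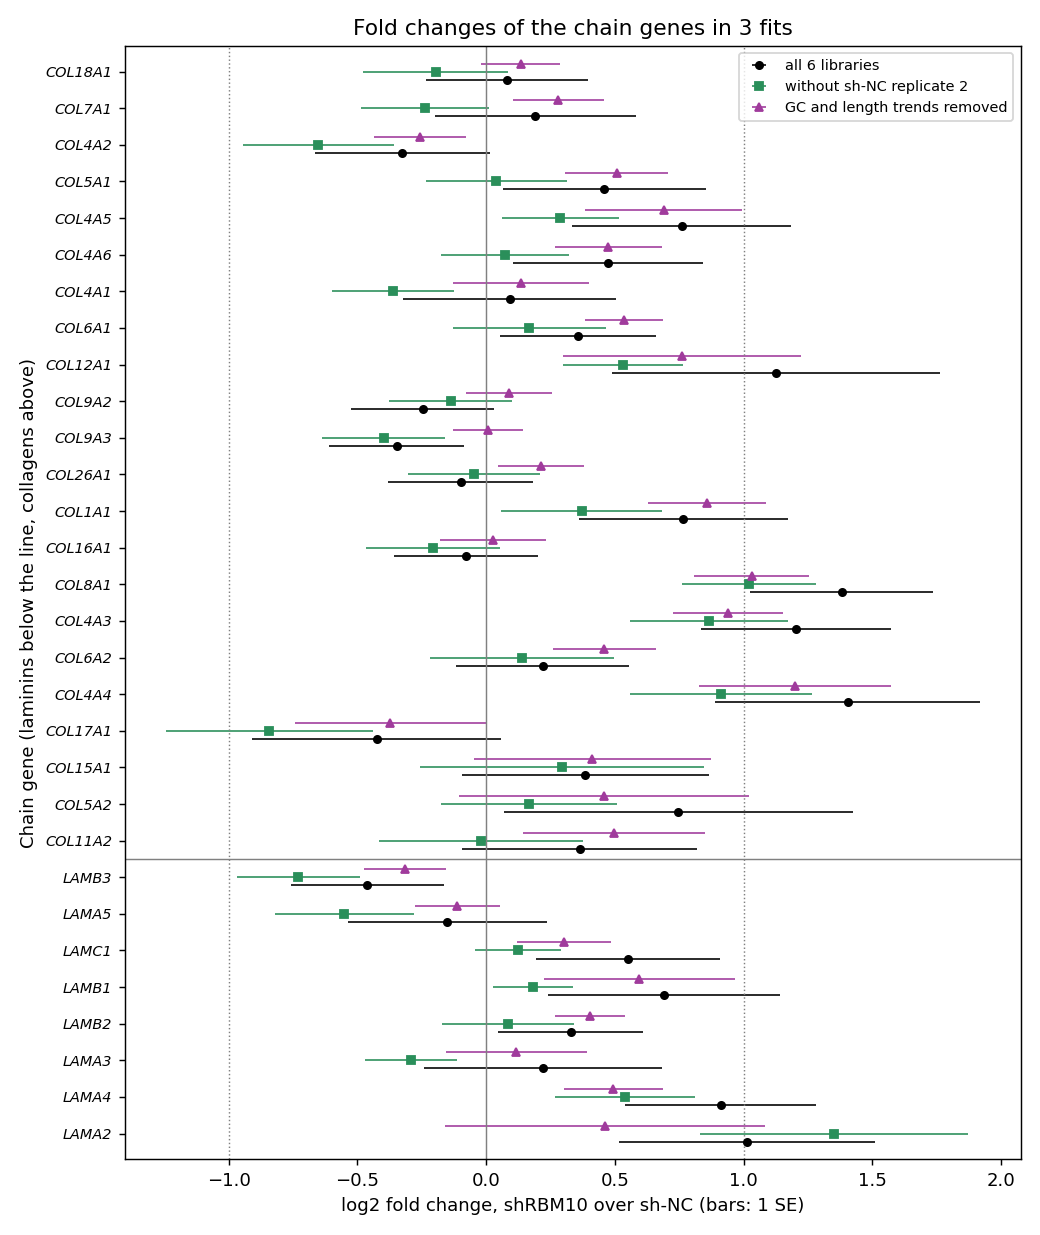
Log2 fold change of shRBM10 over sh-NC with 1 SE for 30 chain genes, from all 6 libraries, without sh-NC replicate 2, and with the GC and length trends removed. COL8A1 stays at or above 1 in the 3 fits, COL4A3 is at 1.20, 0.87 and 0.94, and COL4A4 at 1.40, 0.91 and 1.20.

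The chain genes are long, and the low replicate 2 of sh-NC followed length. Length and GC content here are those of each gene's longest annotated coding transcript, which need not be the transcript expressed. The median length of the chain genes was 6494 bases, against 3394 for all genes tested. Of the 31 chains, 19 were in the longest quintile of genes, which begins at 5745 bases. In replicate 2 the median chain was at -1.14 on the log2 scale relative to the mean of replicates 1 and 3, 27 of the 31 were lower, and 54.8% were lower by more than 2-fold, against 15.1% of all genes. The shortest chain genes, COL9A3, COL9A2 and COL26A1, were not lower there (0.09, 0.50 and 0.37). Over the 31 chains, Spearman's rho between length and this difference was -0.65, and over all genes it was also -0.65. Length also went with differences in shRBM10. In all genes, the longest quintile was at 0.62, 0.36 and -0.07 in libraries A, B and C relative to sh-NC replicates 1 and 3. The shortest quintile was at -0.16, 0.04 and 0.05. Leaving out sh-NC replicate 2 does not remove these differences. All of these are descriptions across genes of the same libraries.

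Within shRBM10, the chains followed GC content. Their median GC content was 55.9%, against 49.3% for all genes tested. Library C was above the mean of A and B in 25 of 31 chains, and in the 16 chains at or above the median GC content it was the highest of the 3 libraries in 15. Spearman's rho between GC content and the log2 ratio of the mean of A and B to C was -0.63. The extremes were LAMA2 at 1.38 (46.5% GC) and COL15A1 at -1.06 (55.2% GC). In all genes, the poorest quintile in GC was at 0.99, 0.70 and -0.02 in libraries A, B and C relative to sh-NC replicates 1 and 3, and the richest quintile at -0.52, -0.37 and 0.00. COL8A1, COL4A3 and COL4A4 are of 46.8% to 49.5% GC, in the middle quintile. All genes of that quintile were at 0.03, -0.007 and 0.007 in A, B and C. The next poorer quintile in GC was at 0.76, 0.52 and 0.01, and the next richer at -0.33, -0.27 and 0.007. The trend in A and B thus crossed 0 in the middle quintile and was not absent there. In COL8A1, COL4A3 and COL4A4, A and B were not above C on average, at -0.02, -0.07 and -0.71, and the part of GC content was not tested. With the GC and length trends removed their log2 fold changes were 1.03, 0.94 and 1.20.

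**Figure D3:**
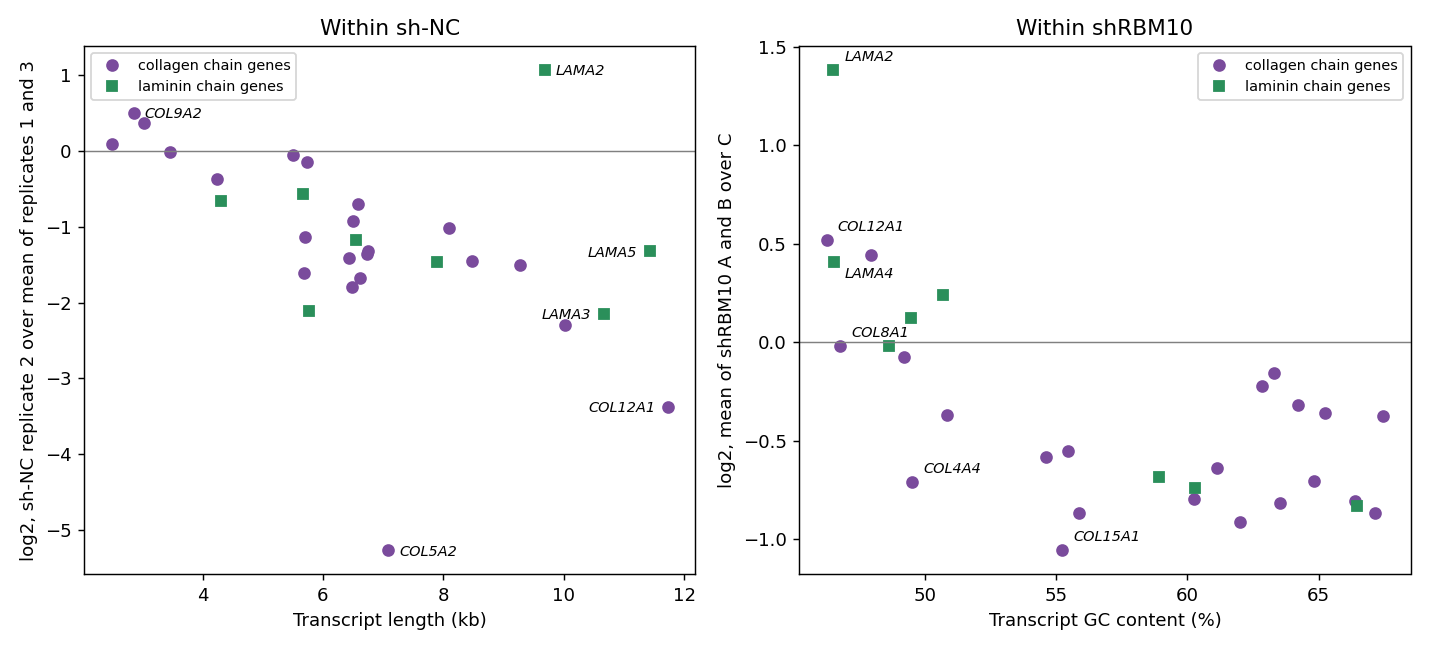
Left, log2 ratio of sh-NC replicate 2 to the mean of replicates 1 and 3 (normalized counts plus 0.5) against transcript length in kb. Right, log2 ratio of the mean of shRBM10 libraries A and B to C against GC content in percent. Length and GC content are those of the longest annotated coding transcript. Each of 30 points is a chain gene, collagens as circles and laminins as squares, and both clouds slope down, with rho of -0.65 and -0.63 over the 31 chains.

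RBM10 acts on splicing, so the shares of the chains' transcripts were compared as well. Of the 31 chains, 17 had several transcripts with enough counts. None changed in transcript usage at an adjusted p under 0.05 in edgeR's diffSpliceDGE, against 0.0958% of the 8348 genes tested. COL26A1 had the smallest p of the 17. In COL26A1 the predicted transcript XM_017011745 took 19.5%, 43.6% and 22.2% of the gene's estimated count in sh-NC, against 0%, 2.51% and 0% in shRBM10. The groups did not overlap, on 31 to 58 estimated counts in sh-NC and at most 3.79 in shRBM10. The gene's Simes p was 0.00960, and 0.631 after adjustment. With the gene-wise F test in place of Simes the adjusted p was 0.233.

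COL4A5 is singled out after its values were seen, since its 2 main transcripts differ by a defined coding segment. NM_033380 holds 18 bases that NM_000495 lacks, in 2 exons of 9 bases each, exons 42 and 43 of 53, at chrX:108670228-108670236 and chrX:108674745-108674753 (GRCh38, plus strand). They lie in the part that encodes the triple helix. The segment with 30 bases on each side is shown from the GENCODE release 29 transcripts, with the extra bases in capitals.
NM_033380: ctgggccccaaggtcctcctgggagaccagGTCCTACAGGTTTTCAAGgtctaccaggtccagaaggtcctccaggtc
NM_000495: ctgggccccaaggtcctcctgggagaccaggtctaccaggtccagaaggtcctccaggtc
NM_033380 took 6.42%, 16.6% and 8.59% of COL4A5 in sh-NC, against 16.5%, 23.0% and 35.5% in shRBM10. The groups met at sh-NC replicate 2 and library A. NM_000495 took 88.2%, 73.1% and 81.2% in sh-NC, against 73.6%, 65.4% and 53.5% in shRBM10. The usage difference of NM_033380 was 1.09 on the log2 scale with an unadjusted p of 0.0616, and the Simes p of the gene in edgeR's diffSpliceDGE was 0.308, so this did not pass. Without sh-NC replicate 2 the unadjusted p of NM_033380 was 0.0169, and without library C it was 0.254. The transcript counts are estimates in which reads shared by transcripts are split.

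Genes that fold, modify, secrete and crosslink collagen were mixed in direction. Of the 36 listed, 30 were tested, and 0 were called at an adjusted p by edgeR. By the unadjusted rule 1 was higher and 2 lower, against 10.1% and 1.53% of all genes. P4HA1, a catalytic subunit of prolyl hydroxylase, was at a log2 fold change of 1.22 (SE 0.36, edgeR adjusted p = 0.153), and 0.59 with the GC and length trends removed. PCOLCE2, an enhancer of procollagen cleavage, was at -1.03 (SE 0.36) and LOXL3, a crosslinking lysyl oxidase, at -0.94 (SE 0.35). SEC23A of the COPII coat and MIA2, an organizer of collagen exit sites, were at 0.85 (SE 0.29) and 0.75 (SE 0.28). LOXL4, a further lysyl oxidase, was the second gene lower by the rule, at -1.20 (SE 0.52). The median of the list was -0.12. With sh-NC replicate 2 left out, P4HA1 was at 1.00, PCOLCE2 at -0.82, LOXL3 at -0.70, SEC23A at 0.80, MIA2 at 0.46 and LOXL4 at -1.22.

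Of 20 listed partners in the basement membrane, 16 were in the table and 10 tested. NPNT, an integrin ligand, had normalized counts of 11.7, 9.49 and 17.9 in sh-NC, against 40.7, 23.7 and 32.3 in shRBM10, with no overlap. Its log2 fold change was 1.28 (SE 0.38, edgeR adjusted p = 0.153), and it was the 1 gene of the 10 past the unadjusted rule, against 10.1% of all genes higher and 1.53% lower. FBLN1, FRAS1, NTN4 and FREM2 followed by p, at -0.39, 0.62, 0.40 and 0.46, with unadjusted p-values over 0.05. Of 17 listed receptors for collagen and laminin, 14 were tested, and 2 were higher by the unadjusted rule, against 10.1% of all genes. ITGA11, which pairs with ITGB1 in a collagen receptor, was at 4.49, 5.43 and 4.47 in sh-NC, against 15.3, 16.1 and 22.8 in shRBM10, a log2 fold change of 1.91 (SE 0.40, edgeR adjusted p = 0.127). ITGB1, the shared beta subunit, was at 1.12 (SE 0.37), and 0.41 with the GC and length trends removed. ITGA1, a further collagen-binding subunit, was at 0.98, ITGA2 at 1.32 and RPSA at -0.70, and of these only ITGA1 had an unadjusted p under 0.05. With sh-NC replicate 2 left out, NPNT was at 1.03, ITGA11 at 1.91, ITGB1 at 0.77, ITGA1 at 0.79, ITGA2 at 0.73 and RPSA at -0.11, and FBLN1, FRAS1, NTN4 and FREM2 were at -0.48, 0.18, 0.027 and -0.12.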

How the data were processed

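RNA-seq of 3 sh-NC and 3 shRBM10 PC9 libraries was used. The deposited tables hold the authors' estimated counts per gene and transcript, not all whole (87.5% and 41.1% of values), and TPM, which the authors scaled by length and depth. The submitters' notes name hg38; the aligner, counter and annotation are not given in the sources used here. Estimated counts were rounded and tested with edgeR 4.0.16 (R 4.3.3; TMM, filterByExpr, quasi-likelihood, Benjamini-Hochberg over 12620 genes; transcript usage with diffSpliceDGE). Normalized counts are per TMM-scaled library size. TPM served for levels between genes, in the 4 libraries matched to titles. In the 2 tables together, 32 per-library columns were not used, nor were the group means.

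GC content, length and positions came from GENCODE release 29 and promoters from RefSeq. GC content and length were taken from the longest annotated transcript of a gene, coding where there was one, and not from the transcripts expressed. In alternative fits smooth trends of counts on GC content and length were removed (mgcv 1.9.3). DESeq2 1.42.0 and limma 3.58.1 were alternatives. Scripts were tested on simulated data. The members, lists and tests were chosen with earlier results of these data known. Values in every library are given for members with an unadjusted p under 0.05, the 3 most counted collagens and laminins, the chains of 2 epithelial laminins and the collagen IV pairs, and up to 5 genes of smallest p per related list; other genes with values in every library were chosen after their values were seen. Exon overlap with other genes was at most 5.52% of any chain's exonic length, and the strand setting of the counting is not given in the sources used here. Counting intervals were not used. The values of 1 laminin chain gene entered the counts and medians and are not reported here.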

Additional observations from a re-analysis of the deposited data

How the results depend on the processing

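No paired analysis was possible because only 1 shRBM10 column carried a replicate number from the titles. Of 30 chain genes, 15 kept the direction of their log2 fold change under all 15 alternatives run, among them COL8A1, COL4A3, COL4A4, LAMA4 and LAMB3 (COL4A4 had no value where at least 10 counts were required in every library). The other 15 turned in 1 or more, which was 32 of 445 values. Leaving out 1 library at a time, the log2 fold changes that turned ran from -0.020 to 0.62 for COL11A2, -0.10 to 0.76 for COL15A1, -0.21 to 0.036 for COL16A1, -0.84 to 0.040 for COL17A1, -0.33 to 0.23 for COL18A1, -0.25 to 0.0082 for COL26A1, -0.36 to 0.36 for COL4A1, -0.024 to 0.50 for COL6A1, -0.15 to 0.41 for COL6A2, -0.24 to 0.43 for COL7A1, -0.29 to 0.49 for LAMA3, -0.55 to 0.072 for LAMA5 and -0.021 to 0.47 for LAMB2. With library size only, COL16A1 was at 0.034 and COL26A1 at 0.050. With the GC trend removed, COL16A1 was at 0.24, COL26A1 at 0.23, COL9A2 at 0.10 and LAMA5 at 0.13. With the GC and length trends removed, COL16A1 was at 0.028, COL26A1 at 0.21, COL9A2 at 0.088 and COL9A3 at 0.0074. With both trends removed and sh-NC replicate 2 left out, a setting chosen after seeing the data, COL16A1 was at 0.17, COL26A1 at 0.33, COL9A2 at 0.24, COL4A1 at -0.10 and LAMA3 at -0.16.

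The number of chains called at an adjusted p was 0 in every alternative except DESeq2, which called 1. The number higher at an unadjusted p ran from 3 to 6 when 1 library was left out, and the number lower was 1 (COL13A1) with no filter on low counts and 0 otherwise. COL28A1, outside the 31 chains, was tested and counted as higher without any 1 sh-NC library and without shRBM10 library B. The median log2 fold change ran from -0.06 to 0.57 over the collagens, below 0 only without shRBM10 library C, and from 0.08 to 0.49 over the laminins. The 2 genes called in the whole table became 573 with DESeq2, 0 with library size only, 31 with no filter, 5 with the GC trend removed, 164 with both trends removed, 279 with both removed and sh-NC replicate 2 left out, and 0 to 23 when 1 library was left out. The cause was not tested. Transcript usage called 0 chains under each of its alternatives. With both trends removed and sh-NC replicate 2 left out, COL8A1 and COL4A3 had edgeR adjusted p-values of 0.032 and 0.046 at log2 fold changes under the limit of 1, within ranges of 0.026 to 0.51 and 0.046 to 0.57 over all alternatives.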
